A study of Homo sapiens with 2 samples.

Results

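The genes described here are 44 genes of G2 phase and mitosis, grouped by the job of their protein, out of 19826 genes in the count table. They come from a list of 45 given by name; no measured value enters the rule, but the list was drawn up with earlier results of these data known. CKS1B, the remaining gene, was not analysed here. The counts are from single cells of MDA-MB-231, a long-established human breast cancer line of the triple-negative, mesenchymal kind. One culture had been adapted for 30 days, as a flat culture in high-glucose DMEM, to 2 mM metformin, and the other had been kept for the same 30 days at 0 mM. Both then spent 10 days on low-attachment plates as floating spheres (mammospheres), which trypsin with EDTA dissociated. Metformin, a diabetes drug, is a biguanide. The study asked how adaptation to the drug changes the transcriptome of such spheres. Each dose has 1 library, so there is no replicate, no test was possible and no p-value is given. A difference between the libraries may come from the dose, the culture or the library preparation, and these cannot be told apart.

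A cell enters mitosis when cyclin B and its kinase CDK1 become active, helped by the CDC25 phosphatases, Polo kinase and Aurora kinases. Kinesins and spindle proteins then build the spindle, kinetochores tie chromosomes to it, and a checkpoint holds the cell back until every chromosome is attached. The anaphase-promoting complex, switched on by CDC20, then marks securin and the cyclins for destruction. Most of these genes are transcribed in a burst late in the cycle, when the DREAM repressor at their promoters gives way to the B-MYB and FOXM1 activators. A snapshot of a growing culture therefore usually holds a minority of cells rich in such transcripts.

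The 0 mM library held 1000 cells with a median of 3386 unique molecular identifiers (UMIs, the tags that count captured transcripts) per cell, and that of 2 mM held 991 cells with a median of 2509. The libraries summed to 4403045 and 3264343 UMIs, mitochondrially encoded transcripts took 5.49% and 5.38% of them, and 0 barcodes were shared. Transcripts of the line were abundant in both, for instance VIM at 3271 and 1596 CPM (UMIs scaled to a common library total) and CD44 at 372 and 262 CPM. The receptor genes ESR1 (2 and 0 UMIs) and PGR (0 and 1 UMIs) and the epithelial cadherin CDH1 (2 and 0 UMIs) were close to 0, while GATA3, of the same luminal list, had 64 and 57 UMIs. The leukocyte marker PTPRC had 0 and 1 UMIs and the collagen gene COL1A1 5 and 3 UMIs, while CD14 had 20 and 52, the endothelial receptor KDR 4 and 12 and the fibroblast proteoglycan DCN 1 and 10 UMIs; the part of such transcripts in the results was not tested. SPARC, listed as a marker of the line, had 1 and 3 UMIs.

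The promoters of these genes share letters that the choice of genes did not use. The CHR, the element through which DREAM and B-MYB complexes act, was searched only in the spellings TTTGAA and TTCGAA, called CHR letters here. CCAAT is the box bound by NF-Y. Both were searched on both strands in RefSeq promoters of the build GRCh38.p14, from 250 bases before to 50 bases after each start; 38 of the 44 genes had an entry. The stretches below run from 100 bases before to 30 bases after the start, 5′ to 3′ on the strand of the gene, with CHR letters and CCAAT (or ATTGG, its reverse) in capitals. The first 8 hold CHR letters and stand for 5 of the roles described here. The last 2 hold neither spelling in this stretch. Other spellings were not searched, so these 2 are not shown to lack the element. They were picked because CCNB1 had the lowest ratio between the libraries and KIF20A leaned most on deep cells at 0 mM. The build of the counts is hg19, and no coordinate was carried between builds.
PLK1, chr16:23678789-23678918, plus strand: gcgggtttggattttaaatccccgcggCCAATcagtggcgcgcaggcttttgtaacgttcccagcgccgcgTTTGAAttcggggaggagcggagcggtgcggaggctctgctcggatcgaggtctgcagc
CDCA3, chr12:6851257-6851386, minus strand: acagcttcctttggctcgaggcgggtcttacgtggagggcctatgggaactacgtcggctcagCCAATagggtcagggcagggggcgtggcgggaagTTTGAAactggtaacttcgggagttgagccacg
CENPA, chr2:26785956-26786085, plus strand: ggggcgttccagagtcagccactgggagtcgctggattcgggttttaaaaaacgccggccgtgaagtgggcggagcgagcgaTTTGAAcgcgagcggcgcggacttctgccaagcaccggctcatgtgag
CDCA8, chr1:37692416-37692545, plus strand: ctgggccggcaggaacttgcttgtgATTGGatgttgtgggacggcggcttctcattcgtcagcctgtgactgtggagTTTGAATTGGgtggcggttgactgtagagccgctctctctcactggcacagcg
CDC20, chr1:43358881-43359010, plus strand: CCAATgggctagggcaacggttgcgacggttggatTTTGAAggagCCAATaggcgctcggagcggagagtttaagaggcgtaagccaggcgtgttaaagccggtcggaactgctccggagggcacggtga
CCNB2, chr15:59105046-59105175, plus strand: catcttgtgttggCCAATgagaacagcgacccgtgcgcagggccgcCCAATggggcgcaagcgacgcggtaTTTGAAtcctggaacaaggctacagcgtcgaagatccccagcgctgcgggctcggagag
PSRC1, chr1:109283116-109283245, minus strand: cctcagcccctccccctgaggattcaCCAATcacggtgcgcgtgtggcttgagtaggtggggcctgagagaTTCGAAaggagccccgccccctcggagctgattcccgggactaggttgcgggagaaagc
HMMR, chr5:163460532-163460661, plus strand: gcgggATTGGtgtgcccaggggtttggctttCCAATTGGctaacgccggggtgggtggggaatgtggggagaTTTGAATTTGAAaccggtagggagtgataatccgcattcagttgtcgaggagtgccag
CCNB1, chr5:69167050-69167179, plus strand: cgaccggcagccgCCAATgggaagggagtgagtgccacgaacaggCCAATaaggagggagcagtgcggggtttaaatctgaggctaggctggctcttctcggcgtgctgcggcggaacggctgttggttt
KIF20A, chr5:138179012-138179141, plus strand: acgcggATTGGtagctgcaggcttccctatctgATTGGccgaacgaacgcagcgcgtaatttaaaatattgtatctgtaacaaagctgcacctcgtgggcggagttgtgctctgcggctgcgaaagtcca

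In PLK1, CCNB2 and PSRC1 the CHR letters begin 29 bases before the start, and in CDCA8 they begin 23 bases before it and overlap a reversed CCAAT by 1 base. HMMR holds the 6 letters in 2 copies side by side, and its CCAAT and reversed CCAAT overlap. Over the whole promoter window, 29 of 38 genes (76.3%) held CHR letters, against 19.5% of the 27305 genes in the promoter table. Counted by promoter, 32 of 49 (65.3%) held them, against 16.4% of 35116 promoters of the same length. Within 50 bases of the start, a window chosen after the positions were seen, 24 genes (63.2%) held them, against 5.14% of 3227 genes that were expressed here above the minimum given below. CCAAT was in 29 genes (76.3%), against 45.1% of those expressed genes. It was about as frequent in a list of 43 S-phase genes (74.2% of 31 matched), of which 0 had CHR letters within 50 bases. A match is a description of the letters, not a site shown to be bound. The 25 genes with CHR letters that passed the minimum had a median log2 ratio between the libraries of -0.45. The 9 without either spelling searched, CCNB1 and KIF20A among them, had -0.71, and other spellings of the element were not looked for.

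Levels of the set were lower in the library adapted to 2 mM metformin. The 44 genes took 0.724% of all UMIs at 0 mM (95% interval 0.716 to 0.732) and 0.514% at 2 mM (0.506 to 0.521), a ratio of 0.709. Intervals in this text cover counting error only, and those of sums also leave out the spread between cells. A ratio per gene was read where a gene reached 50 CPM in either library and 50 UMIs over both, which 40 of the 44 did; CDC25C, PLK1, CENPA and HMMR did not. Of these 40, 38 had a ratio below 1, against 47.4% of the 4105 genes past the minimum. A gene was called lower or higher at a ratio of 1.5-fold or more: 16 of 40 were lower, against 3.31% of all genes, and 0 were higher, against 5.04%. The median log2 ratio was -0.53, against 0.02 over all genes.

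**Figure D1:**
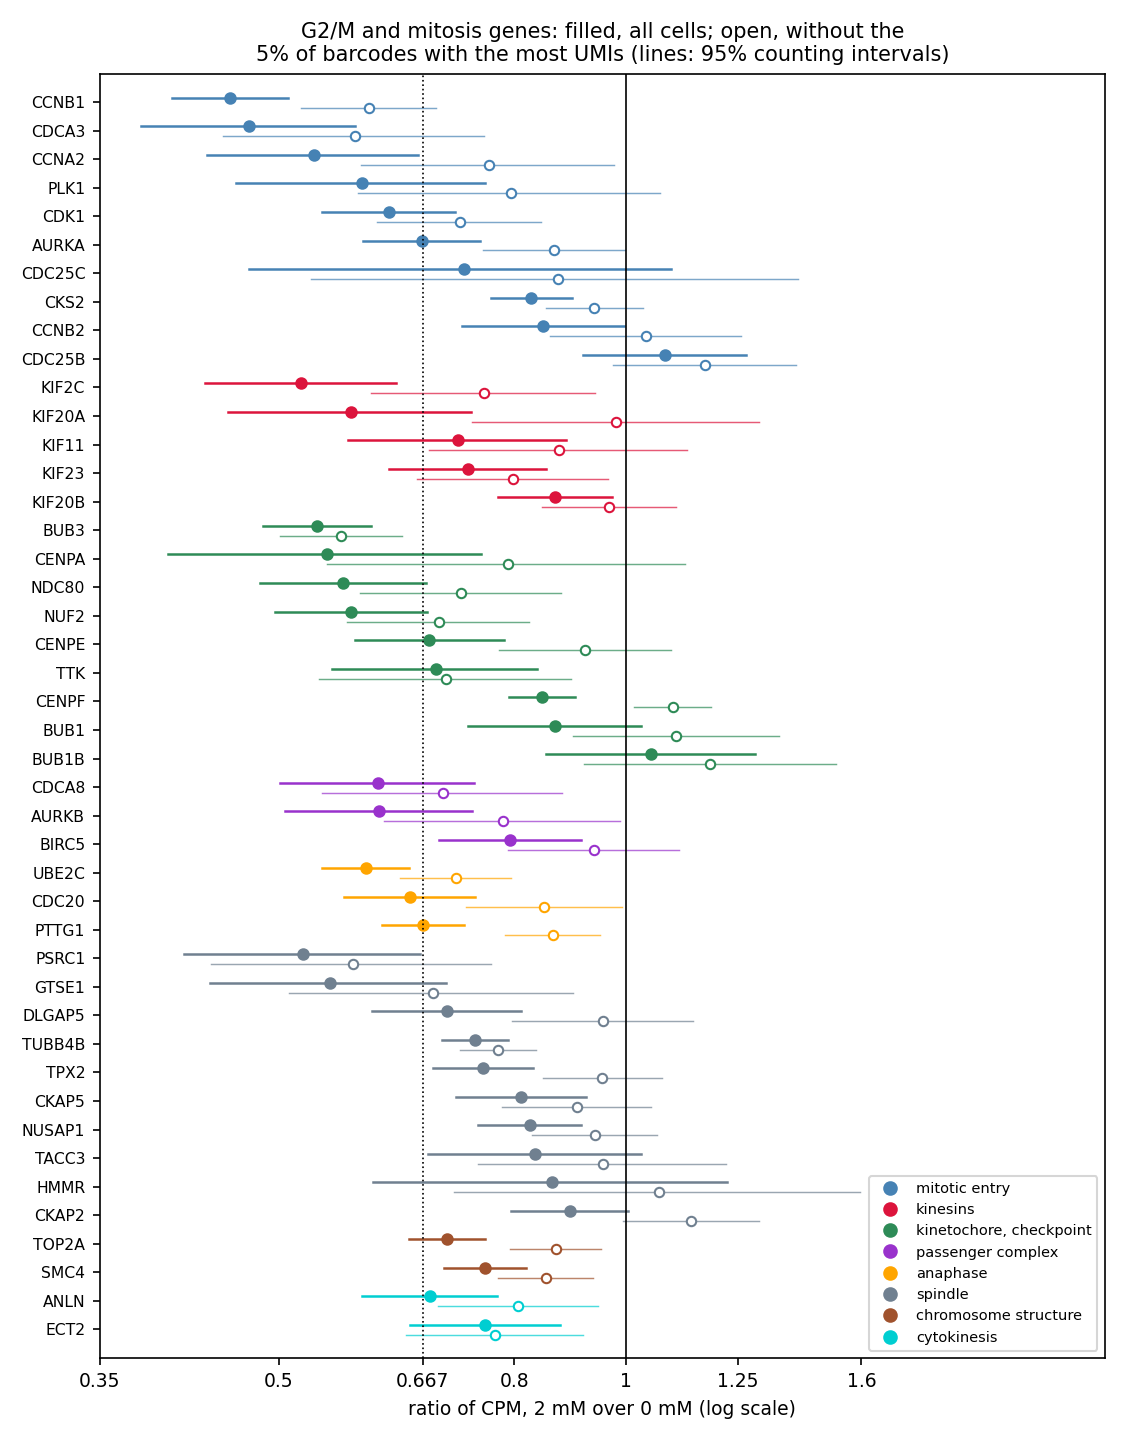
Ratio of CPM at 2 mM over 0 mM (log axis) for each of the 44 genes, coloured by role, over all cells (filled) and without the deepest 5% of barcodes (open); lines are 95% counting intervals, the solid vertical line marks 1 and the dotted line 1.5-fold lower. Filled points lie to the left of 1 for 42 genes, with CDC25B and BUB1B to the right; most open points lie closer to 1, while CCNB1, CDCA3, BUB3 and PSRC1 remain left of the dotted line.

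Regulators of mitotic entry gave the lowest single values, with 5 of the 8 that passed called lower. CCNB1, cyclin B1, went from 266 CPM without the drug to 121 CPM with it; its ratio of 0.454 (0.404 to 0.509) was the lowest of the set. CDCA3, an adaptor for destruction of the mitosis inhibitor WEE1, stood at 78.6 and 37.1 CPM (ratio 0.472). CCNA2, cyclin A2, had 73.1 and 39.2 CPM (0.536). CDK1, the kinase that both cyclins bind, had 163 and 101 CPM (0.623, 0.545 to 0.710), an interval that does not meet that of CCNB1 but meets those of CDCA3 and CCNA2. Within the cyclins the spread was wide: CCNB2, cyclin B2, had 89.9 and 76.3 CPM, a ratio of 0.848 (0.721 to 0.996) whose interval does not meet that of CCNB1. AURKA, the Aurora kinase of centrosomes, had 202 and 134 CPM (0.665). PLK1, the Polo kinase that drives entry, had 49.3 and 29.1 CPM and CDC25C, a phosphatase that activates CDK1, 15.7 and 11.3 CPM, both under the minimum. CKS2, a small partner of the cyclin-dependent kinases, had 360 and 298 CPM (0.828). CDC25B, the phosphatase that starts activation of CDK1 in G2, went the other way at 77.7 and 83.9 CPM, with a ratio of 1.08 whose interval spans 1 (0.918 to 1.27).

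Among the kinesins, the motors that move along microtubules, 2 of 5 were called lower. KIF2C, which takes microtubules apart at kinetochores, had 90.2 and 47.2 CPM (0.523). KIF20A, which carries the passenger complex to the midzone of the spindle, had 52.5 and 30.3 CPM (0.578). The other kinesins were within 1.5-fold: KIF11, which pushes spindle poles apart, had a ratio of 0.715, KIF23, the midzone motor of centralspindlin, 0.730 and KIF20B, a motor of late cytokinesis, 0.868.

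Kinetochore and checkpoint genes split by protein. NDC80 and NUF2, partners in the complex that grips microtubules, were both called lower, at 112 and 63.7 CPM (0.569) and at 132 and 76.3 CPM (0.578). BUB3, the checkpoint protein that docks BUB1 and BUBR1 at kinetochores, had 272 and 147 CPM (0.540, 0.485 to 0.601). Its docking partners did not follow it: BUB1 had 77.7 and 67.4 CPM (0.868, 0.729 to 1.03). BUB1B, which encodes BUBR1, had 48.4 and 50.9 CPM, a ratio of 1.05 (0.853 to 1.29) that turned just below 1 when the libraries were scaled by TMM factors, at a log2 ratio of -0.01. The intervals of BUB3 and of these partners do not meet. TTK, the MPS1 kinase of the checkpoint, had a ratio of 0.684 and CENPE, the kinetochore kinesin, 0.676. CENPF, a large kinetochore protein of G2 and mitosis, had 527 and 446 CPM (0.846), and CENPA, the histone of centromeres, 33.4 and 18.4 CPM, under the minimum.

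The chromosomal passenger complex corrects faulty attachments. Its kinase AURKB (84.7 and 51.8 CPM, 0.611) and its subunit borealin, encoded by CDCA8 (78.4 and 47.8 CPM, 0.610), were called lower, and survivin, encoded by BIRC5, was within 1.5-fold at 122 and 96.8 CPM (0.794). Of the anaphase genes, UBE2C, the ubiquitin-conjugating enzyme of the anaphase-promoting complex, had 382 and 227 CPM (0.595) and CDC20, its activator, 161 and 104 CPM (0.650), both called lower. PTTG1, securin, had 399 and 266 CPM, a ratio of 0.667 that lies just on the inner side of 1.5-fold. PTTG1 has near-identical copies in the genome and TUBB4B shares sequence with other tubulin genes, so the counts of both are uncertain.

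Spindle proteins had the smallest median difference of the roles with more than 2 genes, a median log2 ratio of -0.41 over 9 genes against -0.64 over 8 entry regulators. PSRC1, a microtubule binder of the spindle, had 59.5 and 31.2 CPM (0.525) and GTSE1, a plus-end tracking regulator of KIF2C, 57.0 and 31.6 CPM (0.554); these 2 were called lower. The others were within 1.5-fold. DLGAP5, a kinetochore fibre protein, had a ratio of 0.700, the tubulin TUBB4B 0.740, TPX2, which activates Aurora A on the spindle, 0.752, and the microtubule polymerase CKAP5 0.811. NUSAP1, which bundles spindle microtubules, had 0.825, TACC3, the partner of CKAP5 on kinetochore fibres, 0.834, and CKAP2, a spindle pole protein, 0.894. HMMR, a spindle pole adaptor, had 19.5 and 16.8 CPM, under the minimum. The chromosome genes TOP2A, the topoisomerase that untangles sister DNA (460 and 322 CPM, 0.700), and SMC4, a condensin core subunit (372 and 281 CPM, 0.755), lay near the middle of the set. So did the cytokinesis genes ANLN, a scaffold of the contractile ring (148 and 100 CPM, 0.676), and ECT2, the activator of RHOA at the cell equator (112 and 84.2 CPM, 0.755).

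A large part of the difference was carried by few barcodes. The deepest 5% of barcodes, those with the most UMIs, were 50 in each library, with at least 12161 UMIs each at 0 mM and 8503 at 2 mM. They held 17.6% and 18.8% of all UMIs, but 35.6% of the UMIs of the 44 genes at 0 mM and 23.7% at 2 mM. The median share per gene of the set was 36.6% at 0 mM and 23.9% at 2 mM, against 17.9% and 18.7% over all genes past the minimum. KIF20A had the highest share at 0 mM, 48.1%, and the lowest at 2 mM, 13.1%; CDC25B had the lowest at 0 mM, 23.4%. Whether a deep barcode held 1 cell or several was not tested. Its mitochondrial share was close to that of the other barcodes, at 5.19% against 5.55% at 0 mM and 4.69% against 5.53% at 2 mM.

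**Figure D2:**
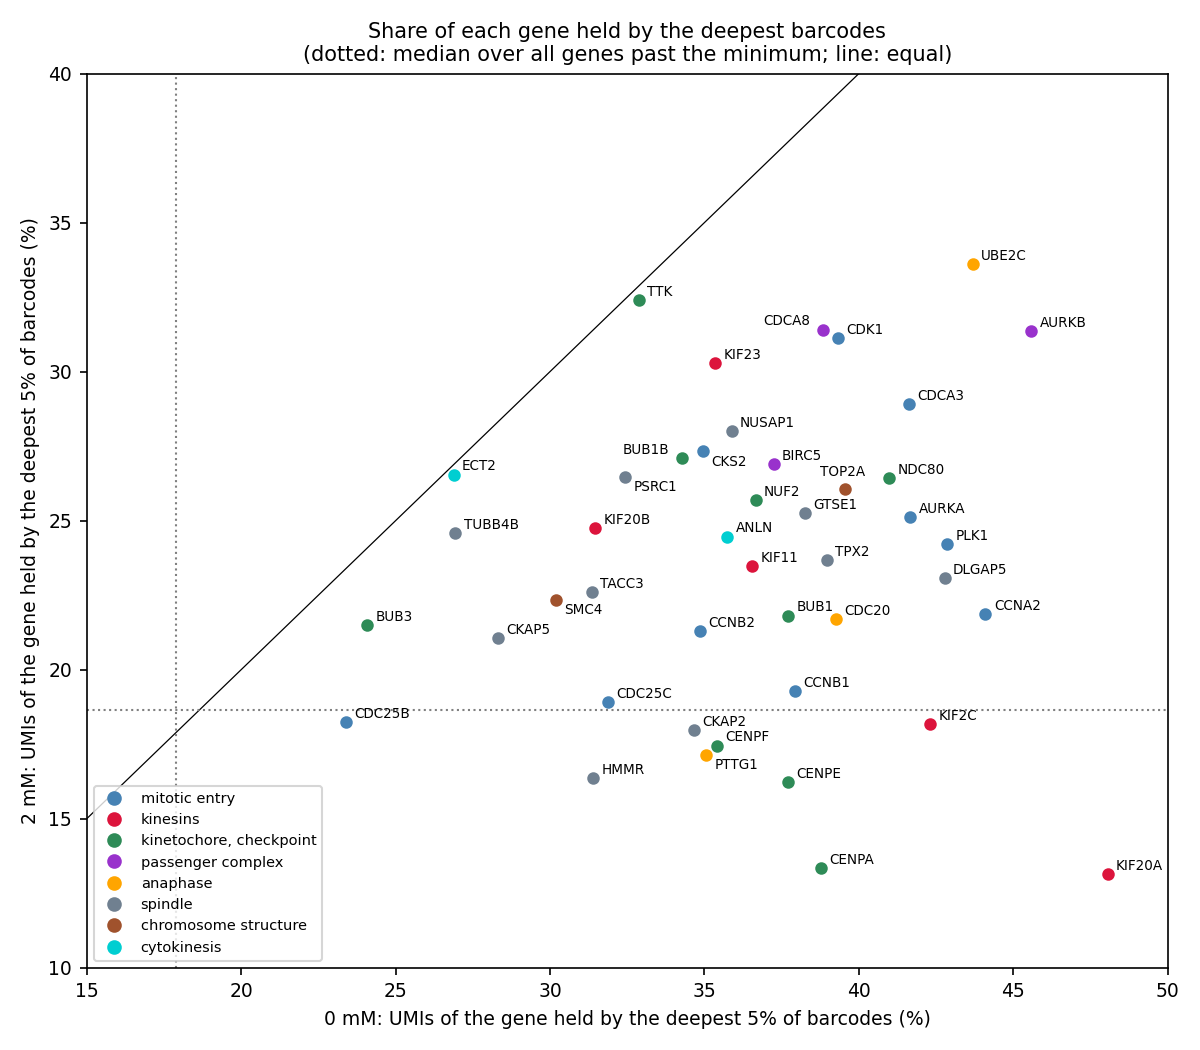
Percent of each gene's UMIs that lay in the 5% of barcodes with the most UMIs, at 0 mM (x axis) and 2 mM (y axis), 1 point per gene, coloured by role; dotted lines are the medians over all genes past the minimum and the solid line marks equal shares. All 44 genes lie right of the dotted vertical line (17.9%) and below the line of equality, from KIF20A at 48.1% and 13.1% to TTK and ECT2 next to the line.

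Among these deep barcodes the libraries differed most. The 44 genes took 1.46% of their UMIs at 0 mM and 0.647% at 2 mM, a ratio of 0.442. In single deep barcodes the share ran from 0.0980% through a median of 1.10% to 4.64% at 0 mM, and from 0.0820% through 0.358% to 3.01% at 2 mM. The ranges overlap, yet 15 of 50 deep barcodes at 0 mM and 2 of 50 at 2 mM were above 2%. Among the other barcodes 47 of 950 (4.95%) at 0 mM and 55 of 941 (5.84%) at 2 mM were above 2%, a small difference for which no interval was taken. Above 1% stood 26 and 12 deep barcodes, and 13.2% and 11.9% of the others. No single barcode held more than 2.07% of the set's UMIs at 0 mM or 2.36% at 2 mM. Single ratios in the deep barcodes ran from 0.148 (0.0763 to 0.263) for KIF20A, at 143 and 21.2 CPM, to 0.789 (0.543 to 1.14) for CDC25B. CCNB1 had 574 and 124 CPM (0.216, 0.167 to 0.276). Ratios over all genes were not taken in these barcodes, which also differed in depth between the libraries.

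Without the deep barcodes the difference was smaller. The set then took 0.566% and 0.483% of UMIs, a ratio of 0.853, and its median log2 ratio was -0.23 over 33 genes that passed, against 0.03 over all genes. Of these, 28 were below 1, against 46.7% of all genes, 0 were called higher, against 5.83%, and 3 were called lower, against 3.12%: CCNB1 at 200 and 120 CPM (0.599), CDCA3 at 55.7 and 32.4 CPM (0.583) and BUB3 at 250 and 142 CPM (0.567, 0.501 to 0.640). PSRC1 had a ratio of 0.580 but then fell under the minimum. KIF20A moved furthest toward equality, to 33.1 and 32.4 CPM (0.981). CENPF passed to the other side, at 413 and 453 CPM (1.10, 1.02 to 1.18), the only member whose interval then lay above 1. CCNB2 (1.04), BUB1 (1.11), CKAP2 (1.14), HMMR (1.07), CDC25B (1.17) and BUB1B (1.18) were also above 1, with intervals that span 1. The direction of CENPF, CCNB2, BUB1, CKAP2 and HMMR thus depends on 50 barcodes of each library. By role, anaphase genes had the lowest summed ratio over all cells, 0.635, and 0.804 without the deep barcodes. Spindle proteins had the highest over all cells, 0.762, and 0.878 without the deep barcodes, where kinesins were highest at 0.883. Cytokinesis genes went from 0.710 to 0.790, then the lowest.

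Depth per cell differed between the libraries, so levels were also set side by side within ranges of UMIs per cell, a comparison added after seeing the data. From 6000 to under 12000 UMIs the set took 0.688% of UMIs in 193 cells at 0 mM and 0.682% in 106 cells at 2 mM, a ratio of 0.991 (0.960 to 1.02). The median share of a single cell in this range was 0.220% at 0 mM and 0.377% at 2 mM, so single cells and sums differ here. From 3000 to under 6000 UMIs the ratio was 0.906, from 1500 to under 3000 it was 0.756, and from 500 to under 1500 it was 0.872. From 12000 UMIs on it was 0.526, with 50 cells at 0 mM and 19 at 2 mM. The difference was thus present at both ends of the depth range and did not exceed counting error in the sums of 1 range between them.

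**Figure D3:**
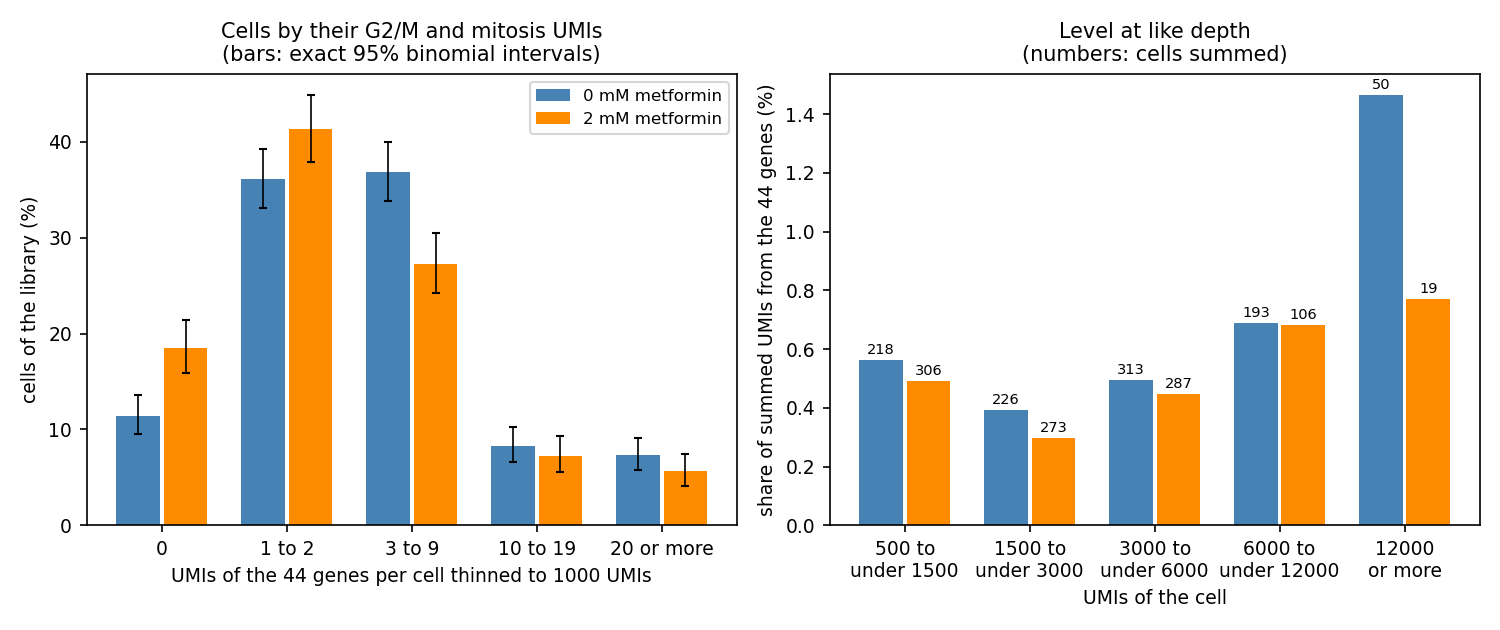
Left, percent of cells (y axis, exact 95% binomial intervals) by the number of UMIs of the 44 genes in a cell thinned to 1000 UMIs (x axis), in 944 cells at 0 mM and 800 at 2 mM; right, percent of summed UMIs taken by the 44 genes (y axis) in ranges of UMIs per cell (x axis), with the number of cells above each bar. Cells with 0 of these UMIs were 11.4% and 18.5%, and the bars on the right are nearly equal only from 6000 to under 12000 UMIs.

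To count cells at like depth, every cell was thinned to 1000 UMIs, which left out 56 shallower cells at 0 mM and 191 at 2 mM. At this depth 52.4% of 944 cells at 0 mM and 40.1% of 800 at 2 mM carried 3 or more UMIs of the set, a difference of -12.3 percentage points (-18.96 to -5.58; the bounds join those of both shares). Without thinning the shares were 88.3% and 70.5%. Without the deep barcodes they were 49.9% and 37.7%, so this difference changed little, while that in summed levels shrank but remained. Cells with 0 UMIs of the set were 11.4% and 18.5%, and those with 3 to 9 were 36.9% and 27.2%. Cells with 10 or more UMIs were 15.6% and 12.9%, a difference of -2.70 points whose interval spans 0 (-7.41 to 2.08). At 20 or more UMIs they were 7.31% and 5.62%, and these few cells held 39.8% and 37.0% of the set's thinned UMIs.

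Gene by gene, the share of cells with a UMI at this depth was lower at 2 mM for 38 of 44 genes. Of the 40 past the minimum it was lower for 34, against 47.9% of all 4105 genes past it. The intervals of the 2 shares did not meet for 6 of them, against 4.53% of all genes: CCNB1 (12.6% and 7.25%), CCNA2 (6.14% and 2.75%), CDCA3 (5.40% and 2.38%), BUB3 (21.5% and 12.1%), PTTG1 (21.3% and 15.6%) and TUBB4B (36.0% and 28.2%). The share was higher at 2 mM for CDC25B (7.42% and 9.25%), CKS2, KIF20A (3.18% and 3.38%), BUB1B, CKAP2 and SMC4, and the intervals did not meet for 0 of these, against 6.53% of all genes. Free RNA can give single UMIs to cells that do not make a transcript, and no second cell type was at hand to measure it. The nearest measure is the share in cells with 0 UMIs of the other 43 genes, which for CCNB1 was 3.57% of 112 cells at 0 mM and 1.33% of 150 at 2 mM. In cells with 20 or more UMIs of the other genes it was 84.1% of 63 and 59.5% of 42. The median depth before thinning was 3571 and 2897.5 UMIs in cells with 0 UMIs of the set, and 5949 and 3903 in those with 20 or more.

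The order of co-expression was read from the company each gene kept. For each gene, the UMIs of the other 43 were averaged over the thinned cells that carried it. A gene outside the set had a median of 5.62 at 0 mM (6358 genes) and 4.38 at 2 mM (6081 genes), with a 95th percentile of 8.37 and 6.87. The genes of the set ran from 7.48 to 27.5 at 0 mM and from 4.80 to 27.2 at 2 mM, and only BUB3, CDC25B and TUBB4B at 0 mM and BUB3 at 2 mM lay under that percentile, with CDC25B at 2 mM (6.88) just above it. The order was much alike in the 2 libraries, with a Spearman rho of 0.879 across the 44 genes, a description of genes that share the same cells.

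**Figure D4:**
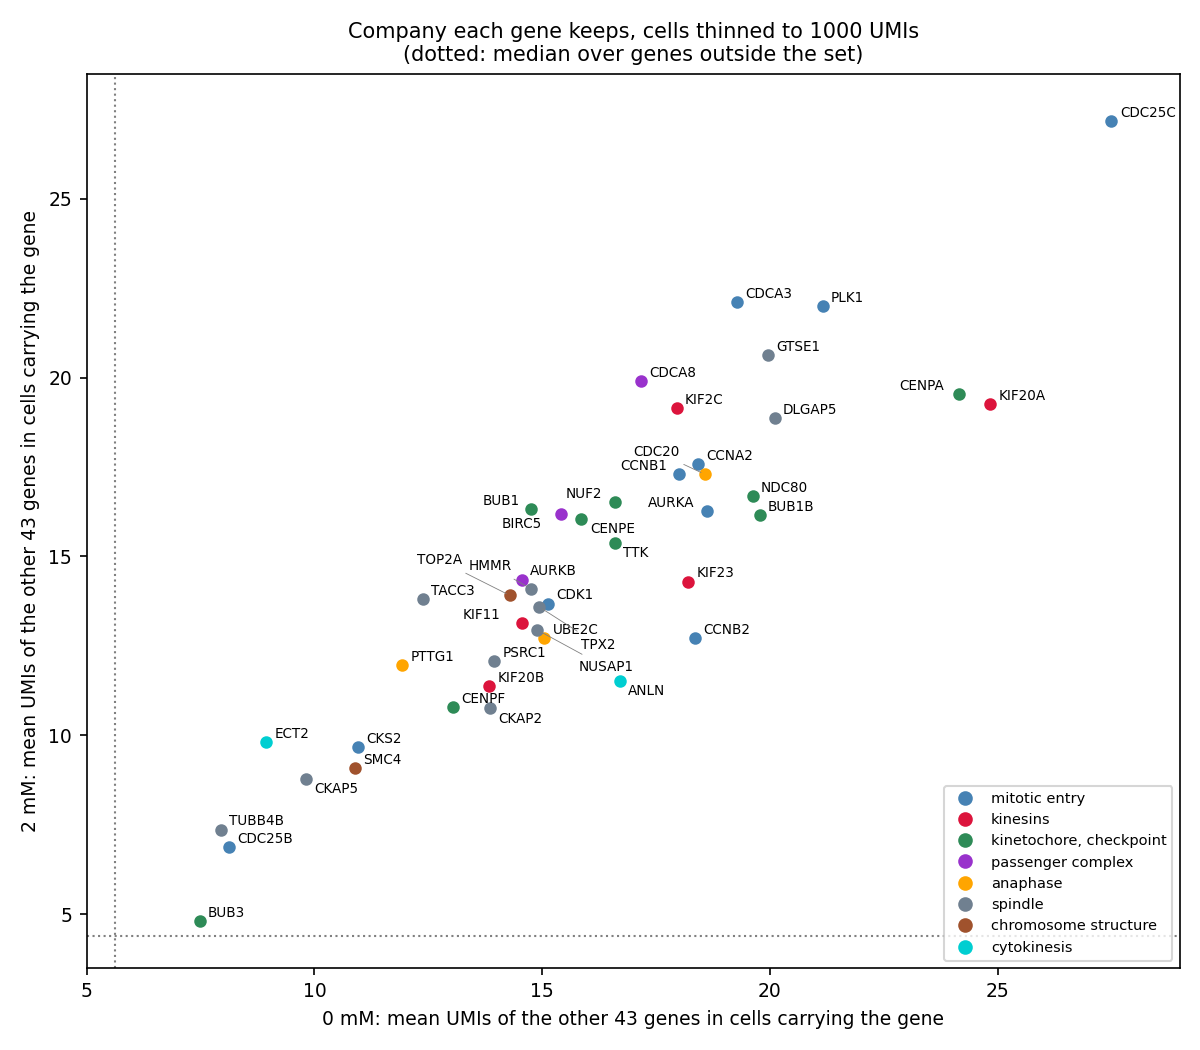
Mean UMIs of the other 43 genes in thinned cells that carry a gene, at 0 mM (x axis) and 2 mM (y axis), 1 point per gene, coloured by role; dotted lines are the medians over genes outside the set, 5.62 and 4.38. CDC25C lies at the top right (27.5 and 27.2) and BUB3 at the bottom left (7.48 and 4.80), next to CDC25B and TUBB4B.

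Kinases, cyclins and their regulators were spread over the whole of this order. CDC25C was first in both libraries (27.5 and 27.2 UMIs of the other genes), from 8 and 6 carrying cells. PLK1 (21.2 and 22.0), CDCA3 (19.3 and 22.1), CCNA2 (18.4 and 17.6), AURKA (18.6 and 16.3) and CCNB1 (18.0 and 17.3) were high. CDK1 (15.1 and 13.7) lay in the middle, and CCNB2 (18.4 and 12.7) was 13th of 44 at 0 mM and 30th at 2 mM. CKS2 (10.96 and 9.66) and CDC25B (8.13 and 6.88) were low. Neighbours in the order with carriers this few are not separated by these data. Among kinesins, KIF20A stood high (24.8 and 19.3) and KIF20B low (13.8 and 11.4), with KIF2C, KIF23 and KIF11 between them. The kinetochore genes CENPA (24.1 and 19.5) and NDC80 (19.6 and 16.7) were high and CENPF (13.1 and 10.8) low. CENPF was carried by 23.3% and 21.0% of cells, while CENPA was carried by 1.48% and 1.38%. This order was not separated from how widely a gene is detected. By correlation across cells with the sum of the others, CENPF was highest (0.590 and 0.600), and CDC25C had 0.173 and 0.159. Detection was not held equal in that measure either. Of the anaphase genes, CDC20 (18.6 and 17.3) stood above UBE2C (15.1 and 12.7) and PTTG1 (11.9 and 11.95).

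By role, the median was 18.4 and 16.8 for entry regulators, 18.0 and 14.3 for kinesins, 16.6 and 16.2 for kinetochore genes, 15.4 and 16.2 for the passenger complex and 15.1 and 12.7 for anaphase genes. It was 14.3 and 13.3 for spindle proteins, 12.8 and 10.7 for cytokinesis genes and 12.6 and 11.5 for chromosome genes. Cytokinesis and chromosome genes, with 2 genes each, were lowest in both libraries. Detection was not held equal between the roles. Within the entry regulators, kinesins, kinetochore genes and spindle proteins the spread was larger than that between the medians of the roles. Without the deep barcodes the low end of the order was kept, with 10 of the 10 lowest, and the high end in part, with 7 of the 10 highest. The mean of both libraries then fell from 20.3 to 15.5 for GTSE1 and rose from 14.4 to 16.7 for HMMR. When each cell was weighted by its UMIs of the gene, abundant genes moved up, TOP2A from 14.1 to 18.5 and CENPF from 11.9 to 16.2 as means of both libraries, since this weighting counts cells rich in the gene more often.

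**Figure D5:**
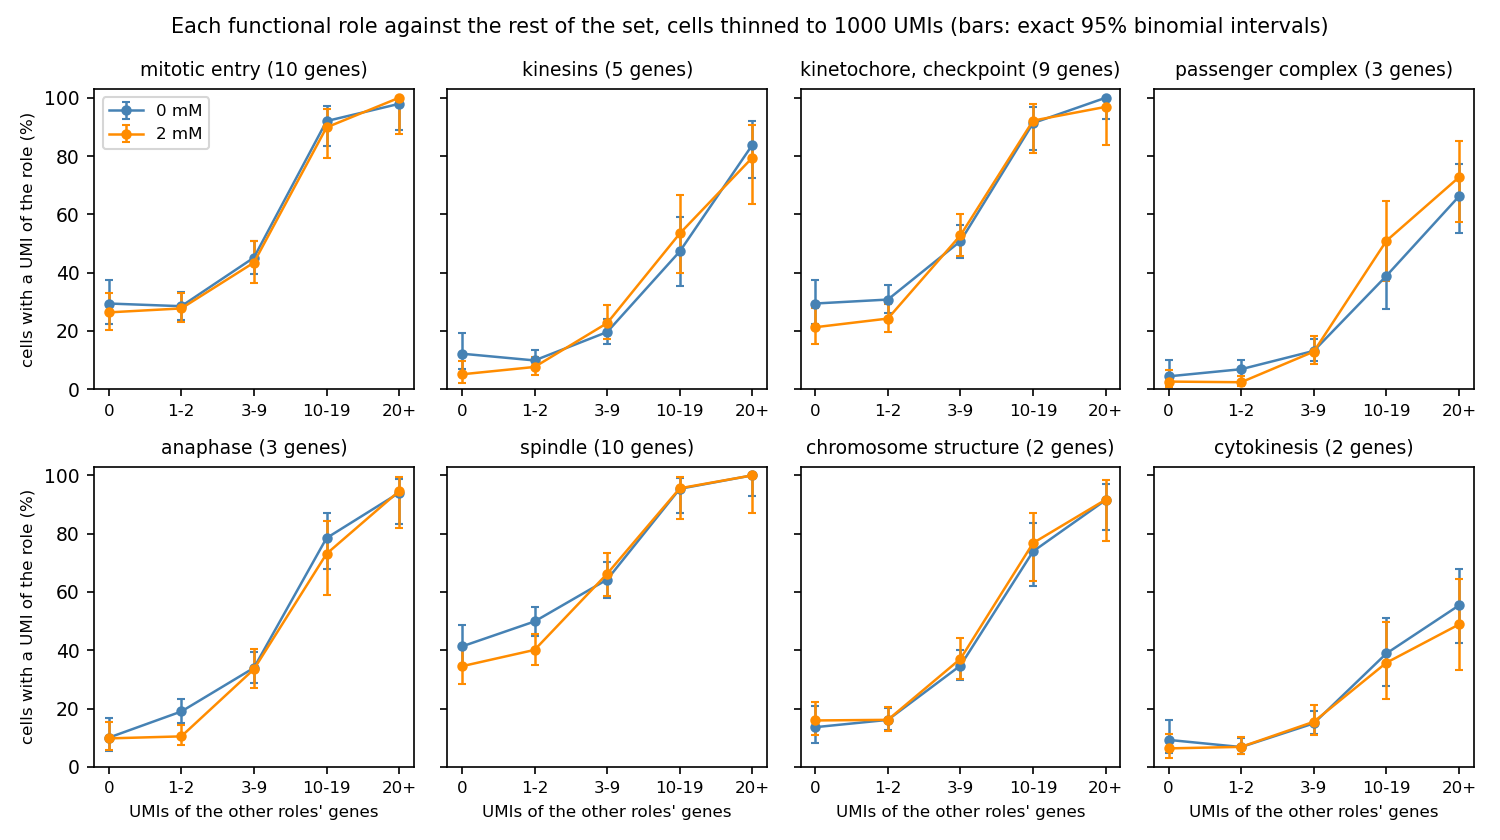
For each role, the percent of thinned cells with at least 1 UMI of its genes (y axis, exact 95% binomial intervals) by the number of UMIs of the other roles' genes in the same cell (x axis), at 0 mM (blue) and 2 mM (orange). In every role the share climbs from the second bin to the last, for kinesins from 9.88% to 83.9% at 0 mM and from 7.65% to 79.5% at 2 mM, and the lines of the libraries run close together.

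All roles filled up together as a cell's content of the others grew. From cells with 1 to 2 UMIs of the other roles to cells with 20 or more, the share with a kinesin UMI went from 9.88% to 83.9% at 0 mM and from 7.65% to 79.5% at 2 mM. For the anaphase genes it went from 18.98% to 94.0% and from 10.4% to 94.6%. Kinetochore genes were present in 49 of 49 such rich cells at 0 mM and in 31 of 32 at 2 mM. At equal content the intervals of the libraries met in every role and range except for the anaphase genes in cells with 1 to 2 UMIs of the others (18.98% and 10.4%). The passenger complex, with 3 genes, was present in 66.2% and 72.7% of the rich cells. BUB3 showed no steady climb at 2 mM. Its share of cells there was 13.5% at 0 UMIs of the other genes, 8.70% at 1 to 2, 14.6% at 3 to 9, 19.6% at 10 to 19 and 11.1% (5 of 45 cells) at 20 or more. At 0 mM it was 19.4%, 18.6%, 20.3%, 28.2% and 38.8%.

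Pairs of genes were found in the same cell more often than their separate frequencies give. Over pairs expected in at least 3 cells, the median ratio of observed to expected cells was 2.49 for 666 pairs at 0 mM and 2.51 for 421 pairs at 2 mM. It was above 1 for 655 and 412 of them. Pairs of genes outside the set were not counted, so how far these values exceed those of other genes was not tested. CDC20 and PTTG1, whose protein it targets, shared 54 cells at 0 mM where 17.9 were expected and 33 at 2 mM where 8.91 were expected. AURKA and its activator TPX2 shared 39 cells against 13.3 and 21 against 6.97. KIF20A and CENPF shared 24 cells in each library, against 6.99 and 5.67. CDK1 and CCNB1, which form the kinase of mitotic entry, shared 30 cells against 10.2 at 0 mM and 7 against 3.19 at 2 mM. Of 261 pairs expected in at least 5 cells in both libraries, the 10 with the lowest ratios all held BUB3 or CDC25B: CCNB1 and BUB3 shared 35 cells against 25.6 at 0 mM and 3 against 7.03 at 2 mM.

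Levels were also compared in cells chosen by genes outside the set. Of a list of 72 further genes of G2 and mitosis, 3 or more thinned UMIs were carried by 773 of 944 cells at 0 mM and 600 of 800 at 2 mM. This threshold does not separate cycling cells, since cells with 0 UMIs of the set still carried a mean of 3.85 and 3.34 UMIs of that list. In these cells 39 of 41 genes that passed had a ratio below 1, against 48.2% of all genes, 14 were called lower, against 3.73%, and 0 higher, against 5.41%; the median log2 ratio was -0.49. Without the deep barcodes it was -0.15, against 0.028 over all genes, with 4 of 38 called lower. At a threshold of 5 UMIs and without the deep barcodes, a setting added after seeing the data, it turned to 0.048. Over all genes it was then 0.037, and 19 of the 41 genes of the set were below 1. The shares of all genes called lower or below 1 were not taken without the deep barcodes in such cells. In the 171 and 200 cells under the threshold 11 genes passed, with a median of -0.13 and 6 below 1, against 44% of all genes. There 1 of them, BUB3, was called lower, against 6.42%, and 1, CKAP2, higher, against 10%; at 2 mM these cells held 75 UMIs of BUB3 and 79 of CKAP2. The threshold passes through dense ground, since 95 and 139 cells at 0 mM and 98 and 134 at 2 mM carried 2 or 3 such UMIs.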

How the data were processed

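The authors deposited 1 table of whole UMI counts for 19826 genes in 2000 barcodes, 1000 of each library; all columns were mapped by name. Libraries were made from bead-bound cDNA with Nextera XT, per the labels. Tools named are bcl2fastq and STAR 2.5.0a on hg19, per the submitters' processing notes; for barcode selection, UMI collapse, annotation and strand the method is not given in the sources used. Cells were barcodes of 500 or more UMIs and 300 or more genes. Counts were summed per library and scaled to CPM; ratios have exact conditional 95% intervals, shares exact binomial ones. A sum of 3 UMIs equals 0.681 CPM at 0 mM and 0.919 CPM at 2 mM. Cells were thinned to 1000 UMIs with a fixed seed for shares and co-expression. No doublet caller was run; the deepest barcodes were left out in alternatives. edgeR 4.0.16 (TMM) and DESeq2 1.42.0 (median of ratios) served only for scaling, with Python 3.11.15 and scipy 1.17.1 for the rest. Merging barcodes 1 base apart left 931 and 885. Scripts were tested on simulated data. All listed genes are named, as are 4 further mitotic genes at each end and the 10 genes most alike. Members and lists were chosen with earlier results of these data known.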

Additional observations from a re-analysis of the deposited data

How the results depend on the processing

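The median log2 ratio of the set, taken over its genes that passed in each setting, stayed below 0 under the 15 alternatives tried. It ran from -0.62 to -0.22, and it moved when deep cells were left out or weighted down. It was -0.23 without the deepest 5% of barcodes, -0.26 without the deepest 10%, -0.23 without barcodes of 12000 UMIs or more and -0.39 with each cell weighted equally. Over the same 40 genes as with all cells, the first 3 of these were -0.22, -0.28 and -0.22. The number called lower, 16 of 40 against 3.31% of all genes, became 3, 5, 3 and 10 under these settings. It was 4, 6 and 5 over the same genes, and 8 at a minimum of 100 CPM. Fewer genes can pass under such settings, so part of a fall in these counts can come from genes that no longer passed. Without the deepest 5%, the 3 were of 33 that passed, against 3.12% of all genes. The ratio of UMI shares, 0.709, became 0.853, 0.834 and 0.862 without the deepest 5%, 10% and barcodes of 12000 UMIs. TMM factors gave 22 called lower and a median of -0.62; over all genes they gave 216 lower and 148 higher, in place of 136 and 207. The difference in cells with 3 or more UMIs kept its sign under 12 alternatives and was -2.70 points at a threshold of 10. In cells chosen by other mitotic genes the median was -0.15 without the deepest 5%, and -0.16 with this and a threshold of 2 UMIs. Without the deepest 5% and at a threshold of 5 it turned to 0.048, against 0.037 over all genes, and the cause was not tested. Of the 44 single ratios, 28 moved beyond their interval without the deepest 5% of barcodes and 17 with equal weights. Barcodes of 12000 UMIs, the same-gene counts and the joint thresholds were chosen after seeing the data. No paired analysis was possible because each dose has 1 library and the labels give no replicate numbers. Depth limits the rare genes: CDC25C rests on 69 and 37 UMIs.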

Other observations

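Most of the other 72 genes of G2 and mitosis that passed the minimum had lower levels at 2 mM too. Of 39 that passed, 36 had a ratio below 1, against 47.4% of all genes, and 8 were called lower, against 3.31%. Their median log2 ratio was -0.42, and without the deepest barcodes it was -0.22 over 31, beside -0.23 over the 33 of the 44 genes that then passed. The lowest were FAM83D, a spindle positioning protein (52.5 and 26.3 CPM, ratio 0.502), TROAP (50.2 and 25.7 CPM, 0.513), the CDK1 phosphatase CDKN3 (139 and 76.9 CPM, 0.555) and the kinetochore protein KNSTRN (0.572). At the other end stood ANAPC11, the RING subunit of the anaphase-promoting complex, at 374 and 489 CPM (1.31, 1.22 to 1.40), so that the enzyme's UBE2C and CDC20 (ratios 0.595 and 0.650) and this core subunit lay on opposite sides of 1. SMC2, the condensin partner of SMC4, had 147 and 149 CPM (1.01), CDC16 had 1.001 and HN1 0.923. S-phase genes had a median log2 ratio of -0.07 over 20 that passed. Of these, 13 were below 1, against 47.4% of all genes, and 1 was called lower, against 3.31%. Without the deepest barcodes the median was -0.23 over 21. Of these, 18 were below 1, against 46.7% of all genes, and 1 was called lower, against 3.12%. The 44 genes then had -0.23 with 28 of 33 below 1, so outside these barcodes the lower level was not particular to them. The deepest 5% of barcodes held a median of 20.2% of an S-phase gene's UMIs at 0 mM and 26.2% at 2 mM, the reverse of the order seen for the 44 genes (36.6% and 23.9%).

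Genes outside the set whose thinned log counts ran most alike with the set's sum across cells were PRC1, a bundler of the spindle midzone (Pearson r 0.526 in 944 cells at 0 mM and 0.493 in 800 at 2 mM), STMN1, MKI67 (0.467 and 0.490), TUBA1B, ASPM, HMGB2, TYMS, KIF14, CDKN3 and H2AFZ, ranked by the lower of both values among 7576 genes. Of these 10, TYMS was on the S-phase list and the other 9 on the list of further mitotic genes. Their ratios of CPM ran from 0.555 for CDKN3 to 0.811 for ASPM. Without the deepest barcodes ASPM (1.12) and KIF14 (1.01) were above 1. Within the set, CENPF had the highest such correlation with the sum of the others (0.590 and 0.600), and CDC25B stood near 0 (0.0650 and 0.0349).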
